A study of Mus musculus with 6 samples.

Results

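Tetraspanins are small membrane proteins that cross the membrane several times and gather integrins, immunoglobulin superfamily receptors and signalling enzymes into membrane patches. Leukocytes carry many of them. CD53 is found on most blood cells of the leukocyte lineage, CD37 mainly on mature B cells, and CD81 and CD82 on lymphocytes among many other cell types. The genes described here are *Cd53* and 8 relatives, *Cd9*, *Cd37*, *Cd63*, *Cd81*, *Cd82*, *Cd151*, *Tspan31* and *Tspan32*. They were read by the probe sets whose platform annotation names exactly 1 of these 9 genes, which gave 17 of the 22690 probe sets in the deposited values, for 8 of the 9 genes. No probe set was named for *Cd63*, so only its promoter is described here and not its expression. Of the 17 probe sets, 14 passed the filter on low values (at least 3 of the 6 arrays at or above the 40th percentile of the array) and 3 did not.

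The data are 6 Affymetrix mouse arrays of thymocyte RNA, 3 for mice labelled *SCL-LMO1* and 3 for mice labelled control. Mice of both groups were C57BL6 animals of 3 weeks, untreated, and lacked *Cd3ε*, so that thymocytes stop at an early double negative stage without a working pre-TCR. The *SCL-LMO1* group also carried the transcription factor gene *SCL* under the *Sil* promoter and the cofactor gene *LMO1* under the *Lck* promoter, which is active in thymocytes, and the control group carried neither transgene. Neither the labels nor the methods state that replicates are separate mice, so p-values measure only the spread between these arrays, which may be technical.

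*Lmo1*, the mouse gene of a transgenic oncogene, read 5.11, 5.07 and 4.86 on the log2 scale in the *SCL-LMO1*-labelled arrays, against 6.64, 6.84 and 6.77 in the control-labelled arrays, a difference of −1.74 (SE 0.14, limma adjusted p = 0.00161). The direction of these values goes against the label. *Lmo1* passed the filter only through the control-labelled arrays. Its readings in the *SCL-LMO1*-labelled arrays lay below the 40th percentiles of those arrays (5.17, 5.10 and 5.05). The p-value is therefore no test of the labels. The study lists *Cd53* among its up-regulated genes and *Ptcra* and *Slc4a1* among its down-regulated ones, while the deposited values place *Cd53* lower and the others higher in the *SCL-LMO1*-labelled arrays. The labels of the groups may therefore be exchanged, which was not tested, and all directions below follow the labels as given. *Cd3e* read 8.53 to 8.65 in the *SCL-LMO1*-labelled arrays and 8.41 to 8.72 in the control-labelled arrays. *Tal1*, the mouse *SCL* gene, read 4.55 to 4.71 in the *SCL-LMO1*-labelled arrays and 4.27 to 4.44 in the control-labelled arrays, the direction of the label, but did not pass the filter. Whether the *Lmo1* and *Cd3e* probes lie in the transgene or in the deleted part was not tested. Array medians lay between 5.57 and 5.70. The mean of 18 bacterial hybridization controls split the arrays into a bright set (*SCL-LMO1* 1, control 2 and control 3, at 10.40 to 10.62) and a dimmer set (*SCL-LMO1* 2, *SCL-LMO1* 3 and control 1, at 8.91 to 9.49), and both sets hold both groups. Of the 18 probe sets of thymocyte markers, 16 passed the filter, with *Rag1*, an enzyme of receptor gene rearrangement, at 11.16 to 11.71 in the *SCL-LMO1*-labelled arrays and 9.95 to 10.66 in the control-labelled arrays, while those of *Cd2* and *Cd5*, surface proteins of T cells, did not pass it.

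SCL binds DNA together with an E protein at the E-box, and its complex with LMO and GATA proteins can bind an E-box beside a GATA motif. The promoters of *Cd53* and of *Cd37* are shown for these letters. Of the member probe sets, 1 of the 2 of *Cd37* had the pattern over the arrays most like that of *Cd53*. They come from RefSeq on GRCm38.p6, each with 250 bases before and 50 after the transcription start, both on the minus strand, at chr3:106790100-106790399 for *Cd53* and chr7:45238790-45239089 for *Cd37*. Capitals mark matches to CANNTG (E-box) and to GATA, which reads TATC on the other strand.
Cd53: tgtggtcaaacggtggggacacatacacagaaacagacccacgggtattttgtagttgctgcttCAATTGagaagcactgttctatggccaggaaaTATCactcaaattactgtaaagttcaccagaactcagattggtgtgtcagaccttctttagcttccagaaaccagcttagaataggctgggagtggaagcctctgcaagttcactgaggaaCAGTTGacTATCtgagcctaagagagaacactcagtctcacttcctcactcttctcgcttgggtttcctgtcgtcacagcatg
Cd37: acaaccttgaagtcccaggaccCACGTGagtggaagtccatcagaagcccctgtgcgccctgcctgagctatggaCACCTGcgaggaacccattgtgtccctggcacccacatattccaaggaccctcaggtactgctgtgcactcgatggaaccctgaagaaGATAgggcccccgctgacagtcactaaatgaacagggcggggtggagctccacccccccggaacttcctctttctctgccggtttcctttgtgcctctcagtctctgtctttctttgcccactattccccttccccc

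The *Cd53* window held CAATTG beginning 186 bases before the start and CAGTTG 33 bases before it, with TATC beginning 154 and 25 bases before it. In the *Cd37* window CACGTG began 228 bases and CACCTG 175 bases before the start, and GATA 87 bases before it. The 9 genes had 13 such windows, of which 10 held CANNTG, 8 held GATA and 5 held both, searched on both strands. Among all 32851 windows of that length 72.3% held CANNTG, 57.9% held GATA and 43.6% held both, so the letters alone do not set the members apart. All 13 windows held GGAA, the core read by ETS factors, as did 96.0% of all windows, and 4 held TGTGGT, the letters read by RUNX factors, against 16.8% of all. A match is only a match of letters and says nothing of binding in these cells.

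*Cd53* was lower in the *SCL-LMO1*-labelled arrays and had the largest difference of the 14 member probe sets tested, but it did not pass the test across all probe sets. Its probe set (1448617_at) read 8.09, 8.16 and 8.35 in the *SCL-LMO1*-labelled arrays, against 9.07, 9.61 and 8.53 in the control-labelled arrays. The groups did not overlap. The gap between the highest *SCL-LMO1*-labelled and the lowest control-labelled array was 0.18, small beside the range of 1.07 among the control arrays, while the *SCL-LMO1*-labelled arrays spanned only 0.26. Means were 8.20 ± 0.14 (SD, n = 3) in the *SCL-LMO1*-labelled arrays and 9.07 ± 0.54 (SD, n = 3) in the control-labelled arrays. The difference was −0.87 (SE 0.25, 95% interval −1.42 to −0.31), a level 1.82-fold lower, with a limma adjusted p = 0.368 over 13776 probe sets. In an extract of whole thymocytes, fewer cells of a type and less RNA per cell cannot be told apart.

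Within the bright hybridization set the *Cd53* difference was −0.98, and within the dimmer set it was −0.81. *Cd53* had the 31st lowest difference of all 13776 probe sets (0.225% lay as low), while 237 probe sets had a p as small. Rank products, the kind of test the study used, orders genes by the size of change in all 9 pairs of arrays. It gave *Cd53* a proportion of false positives of 0.0403, which is under the threshold of 0.1 used here but not under the stricter threshold stated with the study's gene list. At 0.1 it called 0.443% of all probe sets lower and 0.356% higher, and *Cd53* was the only member called by it. The value leaned on single control arrays. Without control 2 the difference was −0.60 (limma adjusted p = 0.827), and without control 3 it was −1.14 (adjusted p = 0.145). With array weights, which gave 1 array, *SCL-LMO1* 2, a weight of 4.94 against 0.457 to 1.37 for the others, it was −1.08 and passed (adjusted p = 0.0316), in a fit that called 2.61% of all probe sets. Those settings are set side by side in the plot of the *Cd53* difference by setting.

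**Figure D1:**
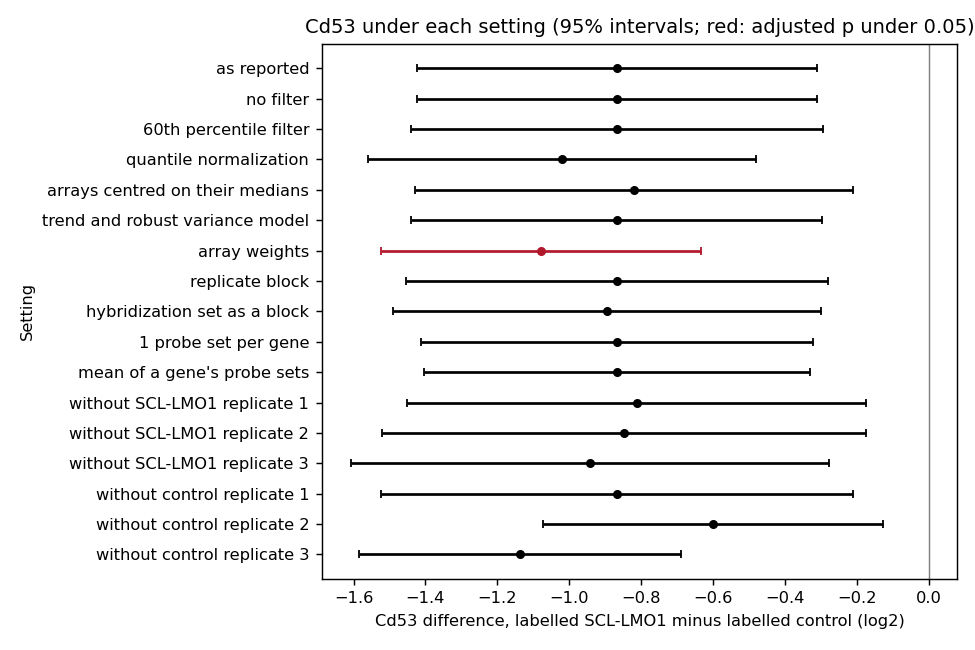
Difference of Cd53, labelled SCL-LMO1 minus labelled control (log2), in each limma setting, with 95% intervals; the setting in red, array weights, had an adjusted p under 0.05. Every interval shown lies below 0, and the values run between −1.14 without control 3 and −0.60 without control 2.

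None of the other members passed limma. Of the 14 probe sets tested 0 were called at an adjusted p under 0.05, where 0.102% of all probe sets were called, so that a count of 0 among 14 says little about the members. At an unadjusted p under 0.05, 1 member was lower (*Cd53*), against 2.67% of all probe sets, and 0 were higher, against 6.18% of all. The groups did not overlap for 1 lower member (*Cd53*), against 5.82% of all, and for 1 higher member (*Cd81*), against 7.36% of all. Counts of 1 in 14 are near those backgrounds. The median difference of the 14 was −0.03, with 6 higher and 8 lower, beside −0.00061 over all probe sets.

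**Figure D2:**
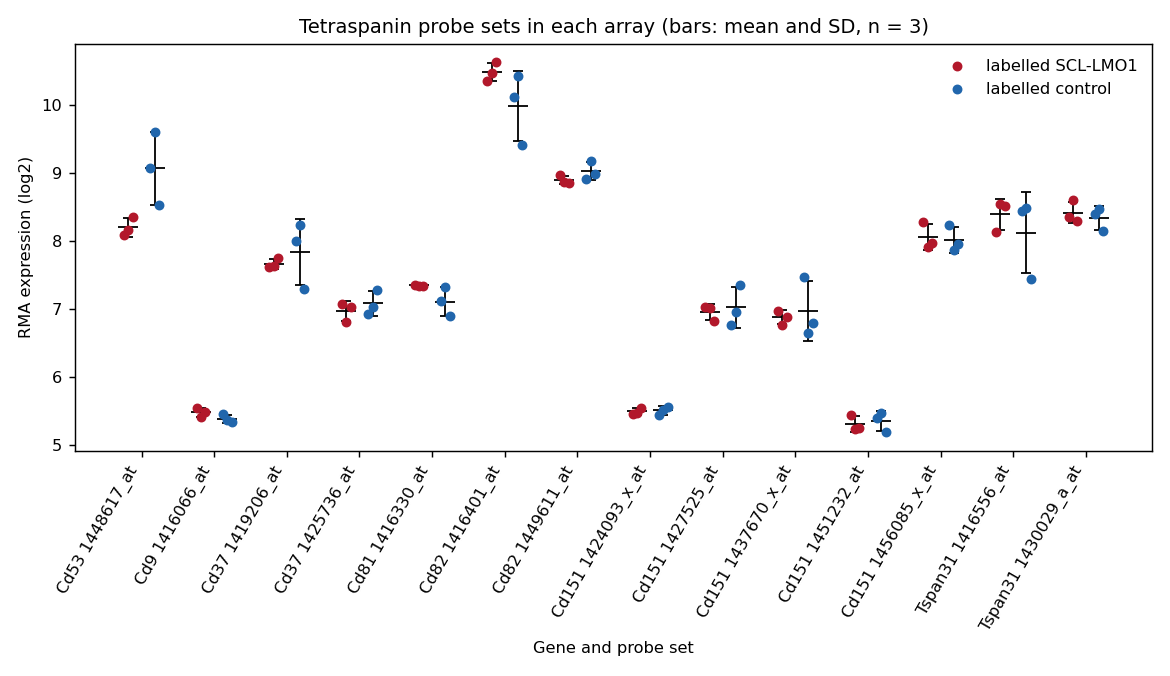
RMA expression (log2) of the 14 member probe sets in each array, arrays labelled SCL-LMO1 in red and labelled control in blue, with mean and SD of 3 arrays. The groups are apart only for Cd53 and Cd81, and the control arrays spread widely for Cd53, Cd37 1419206_at, Cd82 1416401_at and Tspan31 1416556_at.

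*Cd37*, whose protein restrains signalling in mature lymphocytes, is the relative closest to *Cd53* in its use by leukocytes. Its probe set 1419206_at read 7.61, 7.64 and 7.75 in the *SCL-LMO1*-labelled arrays, against 7.998, 8.23 and 7.30 in the control-labelled arrays. Control 1 and control 2 lay above every *SCL-LMO1*-labelled array and control 3 below them, so the groups overlapped. The difference was −0.18 (SE 0.23, 95% interval −0.69 to 0.34, adjusted p = 0.791), and it moved to −0.45 without control 3 and 0.02 without control 2. The second *Cd37* probe set, 1425736_at, had another order, with 7.07, 6.80 and 7.03 in the *SCL-LMO1*-labelled arrays and 6.93, 7.03 and 7.29 in the control-labelled arrays. Control 3 was its highest array, where it was the lowest for 1419206_at. Its difference was −0.11 (SE 0.16, 95% interval −0.47 to 0.24, adjusted p = 0.803).

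*Cd81* was higher in the *SCL-LMO1*-labelled arrays without overlap, but by little. It read 7.36, 7.34 and 7.35 in the *SCL-LMO1*-labelled arrays, against 7.11, 7.32 and 6.90 in the control-labelled arrays. The *SCL-LMO1*-labelled arrays were nearly the same, with an SD of 0.0077 against 0.21 in the control-labelled arrays, and control 2 came close to them. The difference was 0.24 (SE 0.15, 95% interval −0.11 to 0.58, adjusted p = 0.645), and it was 0.13 without control 3. Within the bright hybridization set it was 0.24 and within the dimmer set 0.23.

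*Cd82*, known as a metastasis suppressor gene and as a partner of integrins in T cells, had the highest positive difference of the members in 1 of its 2 probe sets. Probe set 1416401_at read 10.36, 10.46 and 10.62 in the *SCL-LMO1*-labelled arrays, against 10.12, 10.42 and 9.41 in the control-labelled arrays. Control 2 lay within the range of the *SCL-LMO1*-labelled arrays, and control 3 lay far below the rest. The difference was 0.50 (SE 0.24, 95% interval −0.05 to 1.04, limma adjusted p = 0.580), and without control 3 it was 0.21. It was 0.44 within the bright and 0.42 within the dimmer hybridization set. The other *Cd82* probe set, 1449611_at, read 8.97, 8.87 and 8.85 in the *SCL-LMO1*-labelled arrays and 8.91, 9.17 and 8.99 in the control-labelled arrays. It differed by −0.13 (SE 0.14, adjusted p = 0.755), so the probe sets of *Cd82* did not share a sign.

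*Cd9*, best known for its need in egg and sperm fusion and widely found on blood cells, read 5.54, 5.42 and 5.49 in the *SCL-LMO1*-labelled arrays and 5.46, 5.37 and 5.34 in the control-labelled arrays. The groups overlapped, with a difference of 0.09 (SE 0.13, 95% interval −0.21 to 0.39, adjusted p = 0.812). *Tspan31*, a gene first found amplified in human sarcomas, lies on chromosome 10, where its RefSeq span overlaps that of *Cdk4*. Its probe set 1416556_at read 8.13, 8.54 and 8.52 in the *SCL-LMO1*-labelled arrays, against 8.44, 8.49 and 7.44 in the control-labelled arrays. Only control 3 stood apart, and the difference of 0.27 (SE 0.27, 95% interval −0.35 to 0.89, adjusted p = 0.742) became −0.07 without it. Probe set 1430029_a_at of the same gene read 8.35, 8.60 and 8.30 in the *SCL-LMO1*-labelled arrays and 8.40, 8.48 and 8.14 in the control-labelled arrays, a difference of 0.08 (SE 0.16, adjusted p = 0.869).

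*Cd151*, which binds laminin-binding integrins, had 6 probe sets, of which 5 passed the filter and none differed by as much as 0.1. The 5 differences lay between −0.09 and 0.04, with adjusted p between 0.883 and 0.972. Probe set 1456085_x_at read 8.28, 7.92 and 7.98 in the *SCL-LMO1*-labelled arrays, against 8.24, 7.87 and 7.96 in the control-labelled arrays. Replicates 1 were the high ones in both groups. In 1437670_x_at control 1 alone was high, at 7.48, where the *SCL-LMO1*-labelled arrays read 6.77 to 6.98 and the other control arrays 6.65 and 6.79. The remaining *Cd151* probe sets were as close, with 5.46 to 5.55 in the *SCL-LMO1*-labelled and 5.45 to 5.57 in the control-labelled arrays for 1424093_x_at. Probe sets whose name ends in x_at can also bind transcripts of other genes. The signs of such small differences are not stable. With quantile normalization the differences of 1424093_x_at, 1451232_at and 1456085_x_at of *Cd151* and of 1430029_a_at of *Tspan31* changed sign.

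The 3 member probe sets below the filter were 1420921_at of *Cd151*, 1455853_x_at of *Tspan31* and 1418398_a_at of *Tspan32*. *Tspan32*, which restrains the division of T cells in mice, read 3.79, 3.79 and 3.70 in the *SCL-LMO1*-labelled arrays and 3.89, 3.87 and 3.65 in the control-labelled arrays. The other 2 read 3.91 to 3.94 (*Cd151*) and 4.202 to 4.58 (*Tspan31*) in the *SCL-LMO1*-labelled arrays, against 3.84 to 3.97 and 4.36 to 4.49 in the control-labelled arrays. The groups overlapped for all 3, and none was tested. *Tspan32* lies next to *Cd81* on chromosome 7, and *Cd82* next to *Tspan18* on chromosome 2.

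**Figure D3:**
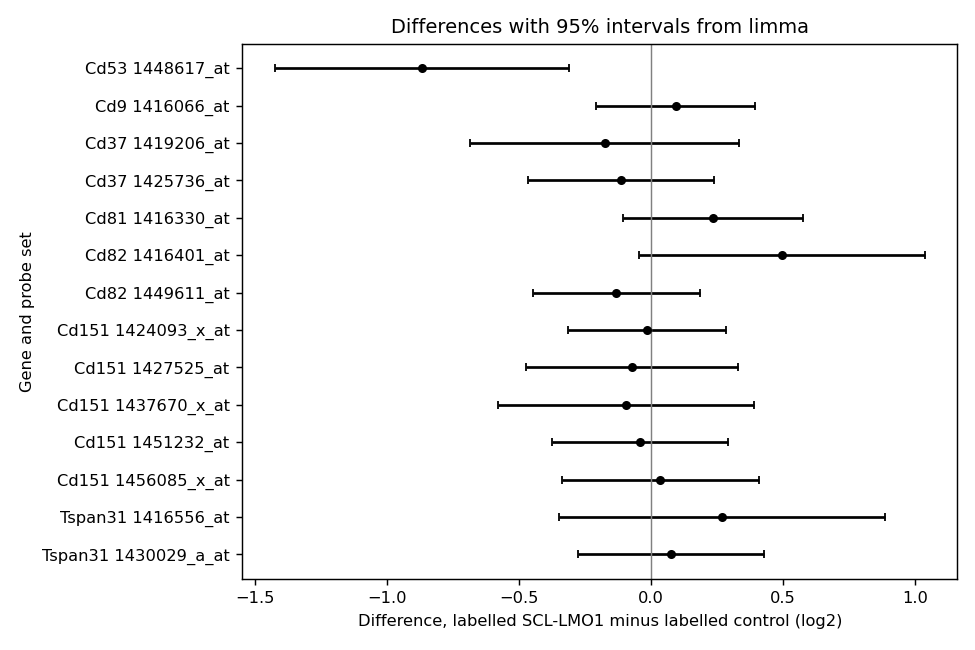
Difference of each member probe set, labelled SCL-LMO1 minus labelled control (log2), with the 95% interval from limma. The interval of Cd53 lies wholly below 0, from −1.42 to −0.31, and the other 13 intervals include 0.

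The control arrays varied more than the *SCL-LMO1*-labelled arrays for most of the member probe sets. The SD was larger in the control arrays for 12 of the 14 member probe sets (85.7%), against 64.7% of all probe sets tested. The median SD of the members was 0.12 in the *SCL-LMO1*-labelled arrays and 0.20 in the control-labelled arrays, and over all probe sets it was 0.16 in the *SCL-LMO1*-labelled arrays and 0.22 in the control-labelled arrays. Control 3 was the lowest of the 6 arrays for 7 of the 14 member probe sets, where it was lowest for 25.0% of all. It was also the highest array for 3 of the 14, and for 26.2% of all. *Cd82* 1416401_at, *Cd81*, *Tspan31* 1416556_at and *Cd37* 1419206_at were among the 7 where it was lowest. The 14 probe sets belong to 7 genes, and 5 of the 14 are of *Cd151*, so they are not independent counts.

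*Ms4a1*, which encodes the B cell protein CD20, followed *Cd53* most closely over the 6 arrays, with a Pearson r of 0.989 among the probe sets named for 1 gene. It read 5.10, 5.25 and 5.46 in the *SCL-LMO1*-labelled arrays, against 6.15, 6.43 and 5.56 in the control-labelled arrays. The order of its arrays in this probe set, 1423226_at, was the same as that of *Cd53*. These values are low, and *SCL-LMO1* 1 lay under the 40th percentile of that array (5.17). The other *Ms4a1* probe set, 1450912_at, read 2.67 to 2.74 in the *SCL-LMO1*-labelled and 2.76 to 2.99 in the control-labelled arrays. It did not pass the filter. Next came *Pde7a*, a phosphodiesterase of cyclic AMP (0.984), *Klf13*, a zinc finger factor (0.981), *Cd28*, a costimulatory receptor of T cells (0.978), and *Rnf130*, a RING finger gene (0.971). The most opposite were *Atp5g3*, a subunit of ATP synthase (−0.994), *Ewsr1*, an RNA-binding protein gene (−0.985), and *Snrpg*, a subunit of the spliceosome core (−0.980). These values describe 6 arrays that share a group difference and 1 normalization, and 67 of 12583 probe sets had an r above 0.9. Among the members, *Cd37* 1419206_at (0.781) and *Cd82* 1449611_at (0.733) came closest to *Cd53*, and *Cd9* was the most opposite (−0.495). The other probe sets of these 2 genes did not share this likeness, with 0.035 for *Cd37* 1425736_at and −0.053 for *Cd82* 1416401_at.

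Most B cell markers that could be tested were, like *Cd53*, lower in the *SCL-LMO1*-labelled arrays, 5 of 7 probe sets, where 6909 of all 13776 were lower. Of the 7 probe sets 2 were lower at an unadjusted p under 0.05, against 2.67% of all probe sets tested. Of 10 listed genes 9 had a probe set, and 7 of 14 probe sets passed the filter, with a median difference of −0.34. Limma called 0 of the 7, against 0.102% of all probe sets. Rank products called 1 lower (*Ms4a1*), against 0.443% of all. Their mean level was 5.82 to 5.98 in the *SCL-LMO1*-labelled arrays and 6.10 to 6.35 in the control-labelled arrays. *Ms4a1* differed by −0.77 (SE 0.22, limma adjusted p = 0.380) and *Cd79a*, a chain of the B cell receptor complex, by −0.64 (SE 0.14, adjusted p = 0.237). Both were without overlap, as were 5.82% of all probe sets in that direction. Within the bright and the dimmer hybridization set the differences were −0.89 and −0.79 for *Ms4a1* and −0.49 and −0.79 for *Cd79a*. *Cd79a* read 5.77, 5.71 and 5.51 in the *SCL-LMO1*-labelled arrays, against 6.39, 6.25 and 6.26 in the control-labelled arrays, so that control 3 was not low in it. *Cd79b*, the partner chain, differed by 0.01 (SE 0.21, limma adjusted p = 0.991), and the highest difference of the list was 0.14. Over the 7 probe sets the Pearson r with *Cd53* ran from −0.716 (*Vpreb1*) to 0.989 (*Ms4a1*). The B lineage factors *Pax5* and *Ebf1* did not pass the filter. The part of B cells in the *Cd53* result was not tested.

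**Figure D4:**
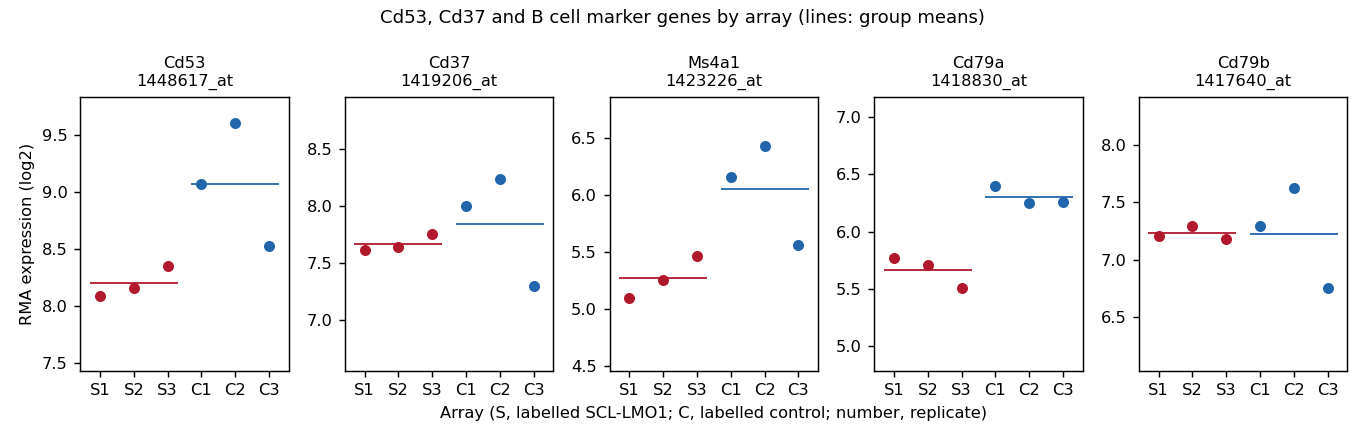
RMA expression (log2) of Cd53, Cd37 and 3 B cell marker genes in each array, S for labelled SCL-LMO1 (red) and C for labelled control (blue), with lines at the group means and the same length of axis in each panel. Cd53 and Ms4a1 share the order of the arrays, Cd79a is lower in all 3 arrays labelled SCL-LMO1, and Cd37 and Cd79b overlap between groups.

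Markers of other cell types went in both directions. Neutrophil markers had mean levels of 6.74 to 7.47 in the *SCL-LMO1*-labelled arrays and 5.73 to 6.43 in the control-labelled arrays. Their median difference was 1.38, in the opposite direction to *Cd53*. Of their 11 probe sets 7 were higher at an unadjusted p under 0.05, against 6.18% of all probe sets. Limma called 0 of them after adjustment and rank products 6, all higher, where rank products called 0.356% of all probe sets higher. Markers of macrophages and dendritic cells had mean levels of 6.70 to 7.12 in the *SCL-LMO1*-labelled arrays and 6.74 to 7.13 in the control-labelled arrays. Their median difference was −0.07, with 12 of 15 probe sets lower, 0 called by limma or rank products. Of all 13776 probe sets tested 6909 were lower. The median was 0.07 for thymocyte markers. Limma called 1 of their 16 probe sets, against 0.102% of all. This was *Ptcra*, the pre-TCR alpha chain, which was higher by 1.28. Rank products called *Ptcra* and *Rag1*, both higher. Erythroid markers had a median of 0.55, with 0 called by limma and 2 by rank products, both of *Slc4a1*, an anion exchanger of red cells, at 1.90 and 1.07. Stromal markers had a median of −0.06, and markers of mast cells and megakaryocytes of −0.16 with 8 of 9 lower, with 0 called by limma or rank products in each. The part of these cells in the member values was not tested.

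No other tetraspanin gene passed the test. Of 22 other tetraspanin genes 18 had a probe set, and 17 of their 31 probe sets, of 14 genes, passed the filter. None was called, where 0.102% of all probe sets were. At an unadjusted p under 0.05, 1 was higher, against 6.18% of all, and 0 were lower, against 2.67% of all. The differences lay between −0.18 and 0.62 with a median of 0.06. The highest was *Tspan2*, a tetraspanin gene known from myelinating glia. Its probe set 1424568_at read 8.34, 8.64 and 8.39 in the *SCL-LMO1*-labelled arrays, against 8.01, 7.70 and 7.80 in the control-labelled arrays. The groups did not overlap, as for 7.36% of all probe sets in that direction. The difference of 0.62 (SE 0.15, limma adjusted p = 0.296) passed only with array weights, at 0.79 (adjusted p = 0.0273). The other *Tspan2* probe sets differed by 0.40 and 0.17 and overlapped. *Tspan14*, whose protein carries the sheddase ADAM10, differed by 0.25, and by −0.01 without control 3. *Tspan6* differed by 0.24 and, without control 1, by 0.13. *Tspan13* differed by 0.20 in 1 probe set, there by 0.062 without *SCL-LMO1* 3, and by −0.08 in another. *Tspan3* was the only other gene without overlap among the probe sets that passed the filter, at −0.18 (SE 0.14). Of all probe sets 5.82% were lower without overlap.

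Genes of the proteins that tetraspanins gather were tested in the same fit. The 3 lists held 38 genes, of which 37 had a probe set, and 47 of 74 probe sets passed the filter. None was called, where 0.102% of all probe sets were. At an unadjusted p under 0.05, 2 were higher, against 6.18% of all, and 1 was lower, against 2.67% of all. Among integrins *Itga6*, which encodes an integrin chain that CD151 binds, was higher in both tested probe sets. The difference was 0.49 (SE 0.16, limma adjusted p = 0.440) for 1422444_at and 0.47 (SE 0.22, adjusted p = 0.570) for 1422445_at. Probe set 1422444_at read 6.34, 6.75 and 6.71 in the *SCL-LMO1*-labelled arrays, against 6.14, 6.18 and 6.03 in the control-labelled arrays. In neither *Itga6* probe set did the groups overlap, where 7.36% of all probe sets were higher without overlap. *Itgal*, the alpha chain of LFA-1, was at 5.89, 5.83 and 5.68 in the *SCL-LMO1*-labelled arrays and at 5.97, 6.51 and 6.17 in the control-labelled arrays, a difference of −0.42 (SE 0.17, adjusted p = 0.527), and −0.27 without control 2. *Itgb2*, its beta chain, differed by 0.40 with the groups overlapping, the opposite sign to its partner, and *Itgb7* by −0.33. Single control arrays moved both, *Itgb2* to 0.17 without control 3 and *Itgb7* to −0.18 without control 2. The median over 12 integrin probe sets was −0.05.

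Of the immunoglobulin superfamily and lymphocyte partners only 5 of 13 probe sets passed the filter. *Cd4*, whose protein associates with CD81 and CD82, differed by −0.26 (adjusted p = 0.610), *Clec7a*, which encodes the receptor Dectin-1 that CD37 holds at the surface, by −0.21, *Ptprc*, the leukocyte phosphatase CD45, by 0.18, and *Ifitm1*, a partner of CD81 and CD9, by −0.15. Leaving out 1 array brought *Clec7a* to −0.061 (*SCL-LMO1* 2), *Ptprc* to 0.018 (*SCL-LMO1* 3) and *Ifitm1* to −0.064 (control 3). Among the endosomal and membrane-proximal partners 30 probe sets had a median of 0.09. *Prkca*, a protein kinase C that tetraspanins bring to integrins, had the highest difference, 0.68 (SE 0.25, adjusted p = 0.487). It read 6.93, 7.46 and 7.44 in the *SCL-LMO1*-labelled arrays, against 7.03, 6.69 and 6.06 in the control-labelled arrays, so that the groups overlapped, and the difference was 0.42 without control 3. *Rdx* and *Msn* encode radixin and moesin, which link membrane proteins to actin. *Rdx* differed by 0.48, and by 0.28 without control 3. *Msn* differed by −0.36 in 1 probe set, and by −0.0063 there without control 2, and by −0.05 in its other probe set. *Lamp2*, a lysosomal membrane protein gene, differed by 0.37 in 1 probe set, and by 0.099 there without control 3, and by 0.31 and −0.02 in its other tested probe sets.

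**Figure D5:**
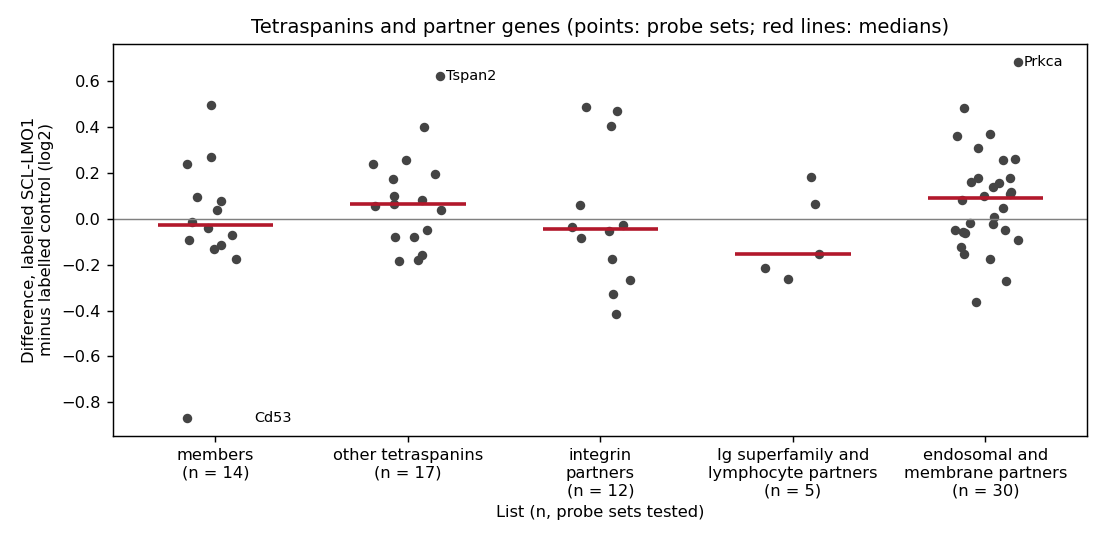
Differences, labelled SCL-LMO1 minus labelled control (log2), of the tested probe sets of the members, the other tetraspanins and the 3 partner lists, each point a probe set and each red line a median. Cd53 lies lowest of all at −0.87, apart from the other members, and Tspan2 (0.62) and Prkca (0.68) are the highest of their lists.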

How the data were processed

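Total RNA of thymocytes was labelled with biotin and hybridized to Affymetrix mouse genome arrays. The deposited values are log2 expression, 1 per probe set and array, summarized and normalized by the authors by RMA in affy (version not given in the sources used here). The authors also removed probe sets that MAS5 called absent in both groups and used Rank Products. The deposited table still holds all probe sets.

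By the platform annotation, 20393 probe sets have 1 gene symbol, 691 have several and 1606 have no symbol. All 8 member genes with a probe set matched RefSeq by gene number. Affymetrix controls (64) were left out. A probe set entered the fit if 3 or more of the 6 arrays reached their own 40th percentile, and 13776 did. The difference between groups was fitted by limma (version 3.58.1, R 4.3.3) without covariates, two-sided and Benjamini-Hochberg adjusted over all kept probe sets at 0.05. An exact permutation test of 3 against 3 arrays cannot go below p = 0.1. Rank products used 9 pairwise differences and 100 permutations. The fit was tested on simulated data.

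The text names all members, up to 4 genes of each other list with the largest difference, and the 5 most and 3 least correlated with *Cd53*. *Tspan3*, *Cd79a*, *Cd79b*, *Vpreb1*, *Pax5*, *Ebf1*, *Rag1*, *Ptcra*, *Cd2*, *Cd5* and *Slc4a1* lie outside this rule. Members and lists were chosen with earlier results of these data known. Alternatives were other filters, normalizations, variance models, array weights, blocks for replicate number and hybridization set, 1 value per gene, rank products and each array left out. The number of arrays limits the precision.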

Additional observations from a re-analysis of the deposited data

How the results depend on the processing

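Limma called 14 probe sets of all tested, 8 with the replicate block, 360 with array weights, 5 to 14 with 1 array left out, and rank products called 110. No other setting, and no array left out, gave a called member. With array weights and with rank products 1 member was called, *Cd53*, at −1.08 and −0.87, and array weights called 1 other tetraspanin, *Tspan2*. *Cd53* stayed between −1.14 and −0.60 with 1 array left out. Array weights also called *Ms4a1* (−0.91) and *Cd79a* (−0.60). Same-numbered arrays had residual correlations of −0.63, 0.05 and −0.38, and the numbers do not pair the arrays. With the replicate block *Cd53* was at −0.87 (limma adjusted p = 0.747). No member was called with it.

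Signs were followed only for the members, the largest differences of the other tetraspanin and partner lists, *Lmo1*, *Ms4a1* and *Cd79a*. Among those that passed the filter, signs turned for 9 probe sets, each with a difference of 0.27 or less in size in the report. *Cd37* 1419206_at ran between −0.45 and 0.019 with 1 array left out. *Cd151* 1424093_x_at was at 0.045 with quantile normalization and 0.034 with centred arrays, and between −0.047 and 0.014 with 1 array left out. *Cd151* 1427525_at was at 0.011 with hybridization set as a block and between −0.20 and 0.094, 1437670_x_at between −0.26 and 0.16. *Cd151* 1451232_at was at 0.033 with quantile normalization, 0.0071 with centred arrays and between −0.12 and 0.021. *Cd151* 1456085_x_at was at −0.095 with quantile normalization, −0.0039 with array weights, −0.037 as the mean over the probe sets of the gene and between −0.076 and 0.14. *Tspan31* 1416556_at lay between −0.072 and 0.45, and 1430029_a_at at −0.072 with quantile normalization and between −0.021 and 0.15. *Tspan14* lay between −0.014 and 0.50. The cause was not tested. With 3 arrays a group, the number of arrays limits what can be told apart, and probe sets under the filter were not tested.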
